A study of Mus musculus with 4 samples.

Results

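The Ets family of transcription factors was examined through 10 of its genes, Etv2, Fli1, Erg, Ets1, Ets2, Elf1, Etv4, Etv6, Elk3 and Gabpa. The members were all probe sets whose single gene symbol in the annotation of the array platform is 1 of these names. This gave 12 of 12422 probe sets, for 8 of the 10 genes: 4 genes (Ets1, Elf1, Etv4 and Gabpa) have 2 probe sets each and 4 (Etv2, Fli1, Ets2 and Elk3) have 1. For Erg and Etv6 no such probe set was found, and both are not analysed here.

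RNA was measured on 4 single-colour arrays, 2 titled Hemangioblast and 2 titled hCD4. Both groups derive from the mouse embryonic stem (ES) cell line Scl+/hCD4, in which human CD4 marks cells that express Scl, the protein of the gene Tal1, and which was kept on STO feeder cells before differentiation. The protocol in the labels describes embryoid bodies of day 2.75, from which Flk-1+Scl+ cells were sorted, and blast colonies that were picked and pooled after replating. The sources call the Hemangioblast arrays differentiated hemangioblasts and the hCD4 arrays ES cells, whereas the series text names the populations hCD4 and Blast, so the labels differ on what each group held and the groups are named by their titles alone. The labels do not say whether replicates were grown separately, so the p-values reflect no more than array-to-array spread, part of which may be technical. Per the same protocol the stem cells were grown with LIF and differentiated in medium with FCS, and no other agent is named for either group.

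By their markers the groups did not follow the title Hemangioblast. The sort markers summed lower on the arrays so titled, and the macrophage and erythroid markers summed higher there. A level on the Hemangioblast arrays is therefore not to be read as that of the sorted Flk-1+Scl+ cells. Beyond this the markers did not settle what each group held. The sort markers Kdr (the Flk-1 gene) and Tal1 summed to a scaled intensity of 903 to 1039 on the Hemangioblast arrays, against 2222 to 2699 on the hCD4 arrays. The sum over 8 macrophage markers was 5113 and 5934 on the Hemangioblast arrays against 449.8 and 429 on the hCD4 arrays, and 6 of the 8 rose and 0 fell. Over 7 erythroid markers it was 27665 and 28093 on the Hemangioblast arrays against 7787 and 8245 on the hCD4 arrays, and 5 of the 7 rose and 0 fell. The 8 pluripotency markers summed to 1212 and 1231 on the Hemangioblast arrays, against 4658 and 2305 on the hCD4 arrays, which thus lay far apart from each other, and 2 of the 8 fell and 0 rose. The 8 endothelial markers summed to 3258.5 and 2917 on the Hemangioblast arrays against 3557 and 4326 on the hCD4 arrays, with 1 higher (Tie1) and 1 lower (Kdr). The 8 fibroblast markers summed to 4463 and 4258.5 on the Hemangioblast arrays against 7013 and 6828 on the hCD4 arrays, with 1 higher (Col3a1) and 1 lower (Fn1). A sum follows its brightest genes. Fn1 alone had 2538 and 2002 on the Hemangioblast arrays, against 5265 and 5411 on the hCD4 arrays. In the endothelial sum Kdr had 648 and 570 on the Hemangioblast arrays, against 1625 and 2003 on the hCD4 arrays. The direction of these 2 sums therefore does not describe the other genes of their lists. Of the macrophage markers, 5 (Adgre1, Ptprc, Lyz2, Fcgr3 and Ctss) were under 50 on both hCD4 arrays, and of all these markers 1, the pluripotency gene Tdgf1, was under 50 on both Hemangioblast arrays. The part of these differences in the results below was not tested, and in RNA of whole populations fewer cells of a type and less RNA per cell cannot be told apart.

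Ets proteins share a DNA-binding domain that recognises sites around the letters GGAA, and their roles differ by where each is made and by the partner it binds. In the early embryo Etv2 acts briefly in mesoderm to start the blood and endothelial programs, and Fli1, Erg and Ets1 follow it and maintain these lineages. Etv4 responds to fibroblast growth factors, Elk3 is a partner of serum response factor, Etv6 is a repressor needed by blood stem cells, Elf1 acts in blood cells and endothelium, and Gabpa is the DNA-binding subunit of GABP, which serves housekeeping and mitochondrial genes. In the mouse genome Fli1 lies next to Ets1, and Erg next to Ets2, with 0 other protein-coding genes starting between the genes of each pair in the RefSeq table.

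The promoters of Etv2, the member with the largest change, and of Kdr are shown, Kdr being a gene that Etv2 is known to activate and that also encodes the receptor used in the sort. Each is the 250 bases before the transcript start in RefSeq's table for GRCm38.p6, 5′ to 3′ on the gene's own strand. Capitals mark GGAA, or TTCC where the same letters lie on the other strand. The Etv2 sequence is chr7:30635853-30636102 on the minus strand, and that of Kdr is chr5:75978456-75978705 on the minus strand.
Etv2: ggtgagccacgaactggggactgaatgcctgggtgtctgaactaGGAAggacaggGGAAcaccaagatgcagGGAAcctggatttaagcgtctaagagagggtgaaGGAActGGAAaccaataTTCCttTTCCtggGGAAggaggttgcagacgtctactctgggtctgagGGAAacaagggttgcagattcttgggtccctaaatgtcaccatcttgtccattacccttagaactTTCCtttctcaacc
Kdr: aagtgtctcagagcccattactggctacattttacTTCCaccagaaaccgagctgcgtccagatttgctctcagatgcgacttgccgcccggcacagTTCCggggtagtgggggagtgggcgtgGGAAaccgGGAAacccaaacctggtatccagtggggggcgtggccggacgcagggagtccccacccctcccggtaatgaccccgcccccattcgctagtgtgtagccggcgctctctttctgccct
Both stretches lie within or overlap the span that the annotation gives to their gene.

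The Etv2 promoter held GGAA on either strand at 10 places and the Kdr promoter at 4. Over all 32851 promoter stretches of this length the mean was 2.91 matches, 93.4% held at least 1, and 63 (0.192%) held 10 or more, while 33.4% held 4 or more. The longer forms CCGGAA and CAGGAA, which each contain GGAA, were also searched on both strands. Kdr held 1 CCGGAA and 0 CAGGAA, and Etv2 held 0 CCGGAA and 1 CAGGAA, against 12.0% of all promoters with CCGGAA and 25.7% with CAGGAA. Promoters in the table covered 7 of the 10 genes with 10 stretches, of which 8 held GGAA, 1 (that of Gabpa) held CCGGAA and 5 held CAGGAA. Of 23 promoters of 16 blood and endothelial genes activated by Ets factors, 22 held GGAA, 2 held CCGGAA and 8 held CAGGAA. Such a match describes the letters only.

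Intensities were scaled to 1 trimmed mean per array, and changes are Hemangioblast minus hCD4 on the log2 scale after adding 16, which understates the change of dim probe sets. They were tested with limma across all 12422 probe sets, with p-values adjusted by Benjamini-Hochberg over all of them and a threshold of 0.05. No probe set's level is set against another's, since each has its own brightness. The deposited table holds no detection calls, so no level can be called absent.

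Etv2 had the largest change of the 12 member probe sets. Its scaled intensity was 19.0 and 36.4 on the Hemangioblast arrays, against 443 and 422 on the hCD4 arrays. The groups did not overlap, and the lower hCD4 array was 11.6 times the higher Hemangioblast array. The means were 27.7 ± 12.3 on the Hemangioblast arrays, against 433 ± 14.9 on the hCD4 arrays (SD, n = 2 each), and the log2 change of -3.39 (SE 0.309, 95% interval -4.10 to -2.68) passed with limma at an adjusted p of 0.000703. On this scale the level was 10.5-fold lower on the Hemangioblast arrays, whereas the plain ratio of the means was 15.6, since the added 16 weighs on the low Hemangioblast values. Adding 1 in place of 16 gave a log2 change of -3.99, and adding 64 gave -2.44. Of 8251 genes, each taken by its brightest probe set, 2 had a lower log2 change than Etv2.

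Of the 12 member probe sets, 1 fell (Etv2) and 0 rose, against 1.56% of all probe sets that fell, 2.91% that rose and 4.48% that passed in either direction. Counted as genes, 1 of 8 fell, against 1.95% of all genes that fell and 5.38% that passed in either direction. The 2 groups stood clear of each other for 5 of the 12 probe sets, 3 lower and 2 higher, against 44.4% of all probe sets, and for 3 of the 8 genes, 2 lower and 1 higher, against 46.6% of all genes (24.5% higher). The other 11 probe sets had adjusted p-values of 0.156 to 0.999, and 2 of them had an unadjusted limma p under 0.05, 1 of Ets1 and 1 of Elf1, against 2029 of all 12422 probe sets. The median log2 change of the 8 genes was -0.52, against 0.02 over all genes. Of the 8 genes 7 were below 0, Elk3 among them at -0.0038, against 3917 of all 8251 genes. The median depends on the probe sets taken. Over all 12 member probe sets it was -0.34, with 9 below 0. Without Etv2 it was -0.18 over the other 11, with 8 below 0. All 12422 probe sets had a median of 0.04, with 5660 below 0.

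**Figure D1:**
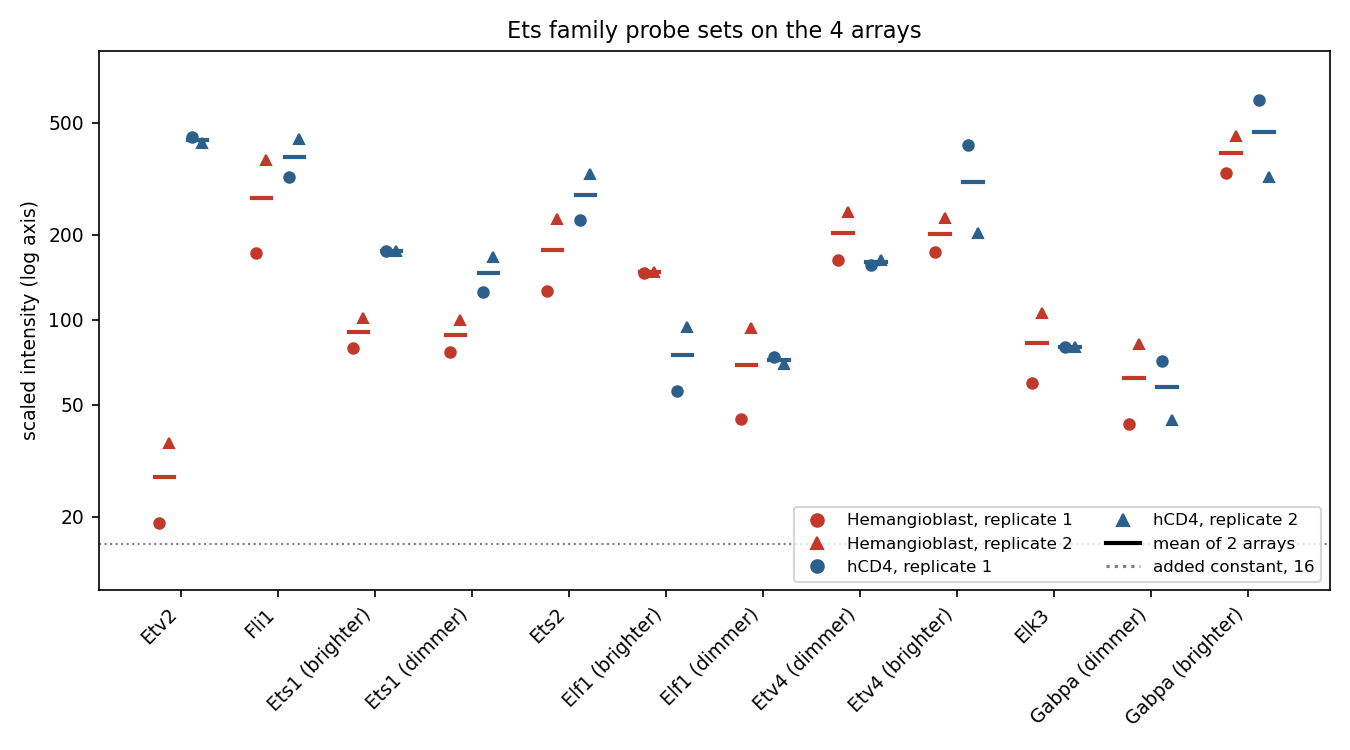
Scaled intensity (vertical log axis) of each of the 12 member probe sets on the 2 Hemangioblast arrays (red, left) and the 2 hCD4 arrays (blue, right), with circles for replicate 1, triangles for replicate 2, a bar at each mean and a dotted line at the added constant of 16. Etv2 stands at 19.0 and 36.4 on the Hemangioblast arrays, against 443 and 422 on the hCD4 arrays, while the Fli1, Elk3 and Gabpa points of the groups overlap.

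The next members by role are those that sustain blood and endothelial cells after Etv2. Ets1, which acts in endothelium and lymphoid cells, had 79.3 and 101 on the Hemangioblast arrays, against 176 and 175 on the hCD4 arrays by its brighter probe set. By its dimmer one it had 77.1 and 100.02 on the Hemangioblast arrays, against 126 and 167 on the hCD4 arrays. Both probe sets were lower on each Hemangioblast array than on either hCD4 array, a pattern that 19.7% of all probe sets showed. The log2 change of the brighter probe set was -0.86 (SE 0.280, 95% interval -1.50 to -0.21, limma adjusted p = 0.156), and that of the dimmer was -0.63 (SE 0.304, 95% interval -1.33 to 0.06, limma adjusted p = 0.369). Neither passed. The change of the brighter one was below 0 under all 12 other settings. As its groups do not overlap, leaving out 1 array could not turn the sign. Fli1 and Ets2, whose groups overlap, also kept their sign under all 12.

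Fli1, which drives megakaryocyte and endothelial genes, had 172 and 370 on the Hemangioblast arrays, against 321 and 437 on the hCD4 arrays. The groups overlapped, and the Hemangioblast arrays differed from each other by 2.15-fold. Its log2 change was -0.54 (SE 0.339, 95% interval -1.31 to 0.24, limma adjusted p = 0.524), and leaving out 1 array moved it between -1.05 (without Hemangioblast replicate 2) and -0.02 (without Hemangioblast replicate 1). Ets2, a factor that takes signals from the Ras and ERK pathway, had 127 and 228 on the Hemangioblast arrays, against 225 and 330 on the hCD4 arrays. Here the groups touched at 228 against 225. Its log2 change was -0.63 (SE 0.320, 95% interval -1.37 to 0.10, limma adjusted p = 0.398), and it lay between -1.02 (without Hemangioblast replicate 2) and -0.25 (without Hemangioblast replicate 1) with 1 array left out.

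Elf1 was the member gene whose brighter probe set had a log2 change above 0. Its brighter probe set had 147 and 148 on the Hemangioblast arrays, against 55.7 and 94.2 on the hCD4 arrays. The Hemangioblast arrays nearly coincided, lay above both hCD4 arrays, as for 24.8% of all probe sets, and averaged 1.97 times their mean. The log2 change of 0.88 (SE 0.324, 95% interval 0.13 to 1.62) did not pass (limma adjusted p = 0.214). Its dimmer probe set had 44.6 and 93.7 on the Hemangioblast arrays, against 73.8 and 69.8 on the hCD4 arrays, with a log2 change of -0.11 (SE 0.377, limma adjusted p = 0.947). The probe sets of Elf1 therefore disagreed, and the intervals overlap.

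The probe sets of Etv4, the member that responds to fibroblast growth factors, also differed in sign. By the brighter one Etv4 had 173 and 231 on the Hemangioblast arrays, against 415 and 203 on the hCD4 arrays. The hCD4 arrays lay 2.04-fold apart, and hCD4 replicate 1 alone was above both Hemangioblast arrays. The log2 change was -0.51 (SE 0.336, 95% interval -1.28 to 0.26, limma adjusted p = 0.545) with all arrays, -0.02 without hCD4 replicate 1 and -0.997 without hCD4 replicate 2. The dimmer probe set had 163 and 242 on the Hemangioblast arrays, against 157 and 163 on the hCD4 arrays, with a log2 change of 0.29 (SE 0.273, 95% interval -0.33 to 0.92, limma adjusted p = 0.708). hCD4 replicate 1 was also the array with the higher sum of pluripotency markers, at 4658 against 2305 on replicate 2, and the part of that difference in the Etv4 level was not tested.

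Elk3, a serum response factor partner found in endothelium, had 59.7 and 105 on the Hemangioblast arrays, against 80.0 and 80.3 on the hCD4 arrays. Both hCD4 values lay between the Hemangioblast values, and the log2 change was -0.0038 (SE 0.347, 95% interval -0.80 to 0.79, limma adjusted p = 0.999). The interval still allows a change of over 1.5-fold in either direction. Gabpa had 333 and 450 on the Hemangioblast arrays, against 604 and 320 on the hCD4 arrays by its brighter probe set, where the hCD4 arrays were 1.89-fold apart and enclosed both Hemangioblast values. Its dimmer probe set had 42.7 and 82.0 on the Hemangioblast arrays, against 71.2 and 44.3 on the hCD4 arrays. The log2 changes were -0.18 (SE 0.300, limma adjusted p = 0.862) for the brighter and 0.06 (SE 0.391, limma adjusted p = 0.973) for the dimmer, and the sign of either turned with at least 1 array left out.

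The 12 member probe sets shared a direction between the 2 Hemangioblast arrays. On the Hemangioblast arrays replicate 1 was lower than replicate 2 for 12 of 12, with log2 differences of -1.03 for Fli1 to -0.02 for the brighter Elf1 probe set and a median of -0.55, while over all probe sets replicate 1 was lower for 56.1%, with a median of -0.06. This direction was not particular to the members. Of the other Ets genes taken up below, Spic, Elk1, Elk4, Elf3, Elf4, Ehf, Erf and Spdef were also lower on Hemangioblast replicate 1. Spi1, Elf5 and Spib were higher there, each gene taken by its brighter probe set. On the hCD4 arrays replicate 1 was lower for 6 of 12 member probe sets (52.9% of all probe sets). For the Gapdh control, signal near the 3' end over that near the 5' end, a ratio that rises when RNA is degraded, was 1.33 and 1.03 on the Hemangioblast arrays, and both hCD4 arrays lay between these values. The higher ratio belongs to Hemangioblast replicate 1, the array with the lower member levels, and its part in them was not tested. Without that array the log2 change of Etv2 was -3.10, and without Hemangioblast replicate 2 it was -3.68.

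**Figure D2:**
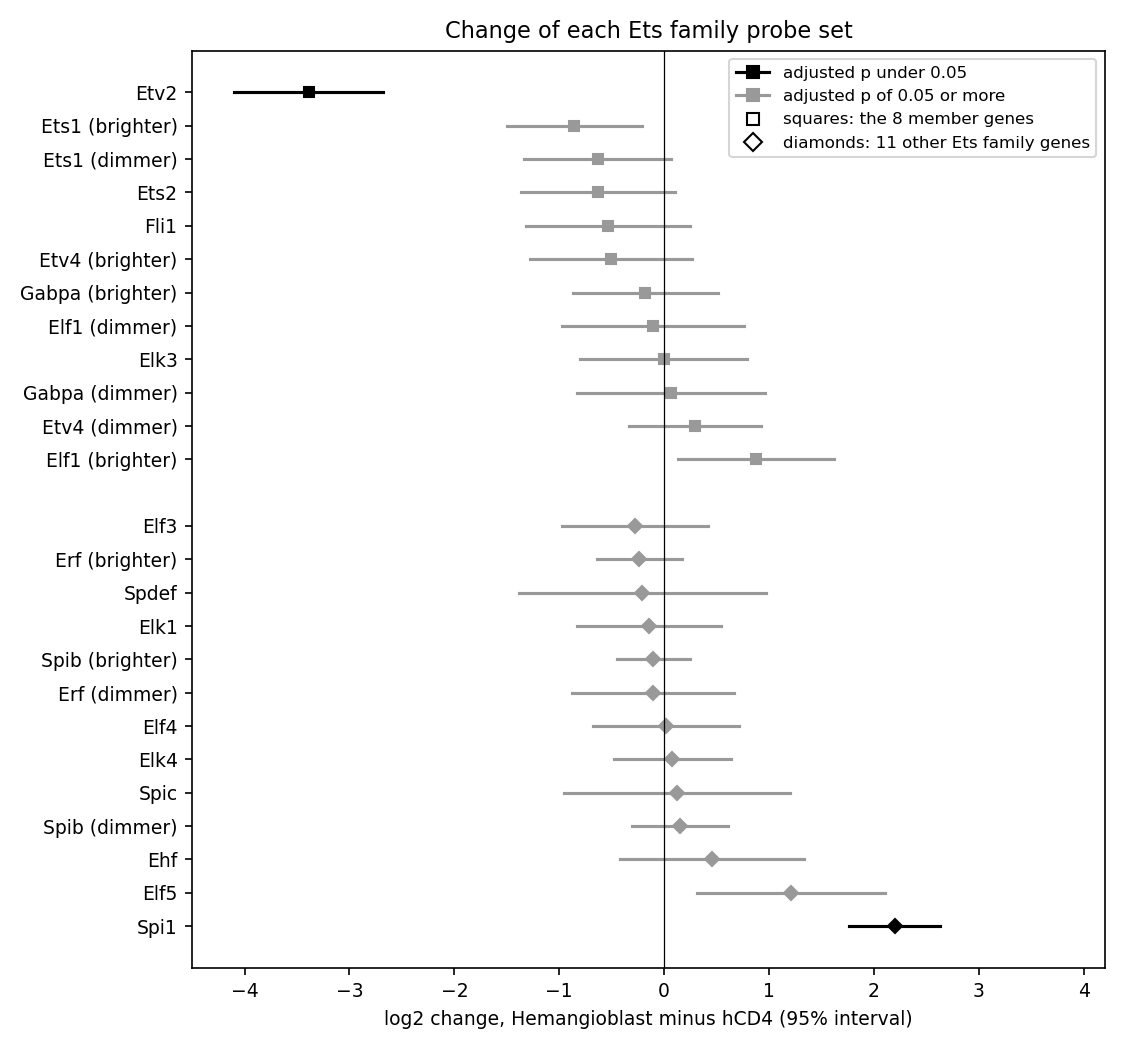
Log2 change (horizontal axis, Hemangioblast minus hCD4) with its 95% interval for the 12 member probe sets (squares) and for 13 probe sets of 11 other Ets family genes (diamonds), black where the adjusted p is under 0.05. Etv2 at -3.39 and Spi1 at 2.20 are the probe sets in black, and they lie on opposite sides of 0.

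The rest of the family was read from a list of 17 other Ets genes, of which 11 had a probe set with their symbol alone. Of these 1 rose (Spi1) and 0 fell, against 3.43% of all genes that rose, and the median log2 change was 0.01. Spi1, which encodes PU.1, the Ets factor that directs macrophage and other myeloid fates, had 914 and 816 on the Hemangioblast arrays, against 163 and 189 on the hCD4 arrays. Both Hemangioblast values were far above both hCD4 values, and the log2 change was 2.20 (SE 0.190, limma adjusted p = 0.000571), a 4.58-fold higher level. The macrophage marker sums given above moved the same way. Elf5, an epithelial and trophoblast factor, had 53.6 and 25.6 on the Hemangioblast arrays, against 9.24 and 5.45 on the hCD4 arrays and did not pass (log2 change 1.21, SE 0.389, limma adjusted p = 0.149). Its hCD4 values are below the added constant of 16.

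The other 9 measured genes of that list lay between -0.28 and 0.45 in log2 change. The serum response factor partners Elk1 and Elk4 had log2 changes of -0.14 (SE 0.300) and 0.08 (SE 0.242). The repressor Erf had -0.24 (SE 0.176), and the lymphoid factor Spib -0.11 (SE 0.151), the smallest errors of the list. Elf4 had 0.01 (SE 0.303), and the epithelial factors Elf3 and Ehf had -0.28 (SE 0.304) and 0.45 (SE 0.383). The macrophage factor Spic and the epithelial factor Spdef, at 0.12 (SE 0.469) and -0.21 (SE 0.513), had at least 1 array near or below 16 in each group, where the added constant sets the scale. Limma adjusted p-values of these 9 genes were 0.610 to 0.993.

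Genes that Ets factors are known to activate in blood and endothelium moved in both directions. Of 19 measured genes of this list, 3 fell (Kdr, Gata2 and Flt4) and 2 rose (Vwf and Tie1), against 1.95% and 3.43% of all genes. The median log2 change was -0.39, and 14 of the 19 were below 0. Kdr had 648 and 570.0 on the Hemangioblast arrays, against 1625 and 2003 on the hCD4 arrays, and its log2 change was -1.55 (SE 0.168, limma adjusted p = 0.00158). Gata2, a transcription factor of blood progenitors, had 461 and 489 on the Hemangioblast arrays, against 947 and 953 on the hCD4 arrays (log2 change -0.98, SE 0.157, limma adjusted p = 0.0124). Flt4, the receptor for VEGF-C, named after its values were seen, had 246 and 224 on the Hemangioblast arrays, against 485 and 448 on the hCD4 arrays (log2 change -0.94, SE 0.195, limma adjusted p = 0.0343). By these probe sets the groups stood apart. The second probe sets of Gata2 and Flt4 overlapped between the groups, with log2 changes of 0.74 (limma adjusted p = 0.550) and 0.13 (limma adjusted p = 0.914), so both falls rest on 1 of 2 probe sets. Kdr passed under all 12 other settings. Gata2 was lost without scaling, without an intensity trend and without either hCD4 array (limma adjusted p up to 0.110), and Flt4 without scaling, without the trend and without any 1 of the 4 arrays (limma adjusted p up to 0.193).

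The genes that rose on this list belong to endothelium and platelets. Vwf, the von Willebrand factor made by endothelium and megakaryocytes, had 453 and 466 on the Hemangioblast arrays, against 47.1 and 42.5 on the hCD4 arrays (log2 change 2.97, SE 0.255, limma adjusted p = 0.000571). Tie1, an endothelial receptor, had 1180 and 1043 on the Hemangioblast arrays, against 400.5 and 556 on the hCD4 arrays (log2 change 1.21, SE 0.196, limma adjusted p = 0.0128), and its other probe set also rose (1.38, limma adjusted p = 0.00608). The second probe set of Vwf had a log2 change of 0.20 (limma adjusted p = 0.870), so the rise of Vwf rests on 1 of 2 probe sets. Vwf passed under all 12 other settings by its brighter probe set, and the brighter Tie1 probe set was lost without hCD4 replicate 1 and without an intensity trend (limma adjusted p = 0.105 without the trend).

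Further partners and targets were named after their values were seen. Tal1, which acts with Ets factors at blood enhancers, had 391 and 333 on the Hemangioblast arrays, against 597 and 696 on the hCD4 arrays (log2 change -0.81, SE 0.186, limma adjusted p = 0.0513). Tal1 lay close to the threshold and passed with an added constant of 1 and with dim probe sets left out, but in no fit with 1 array left out. For Lmo2, a bridging partner of Tal1, the log2 change was -0.56 (limma adjusted p = 0.172), and for the junction gene Cdh5 it was -0.53 (limma adjusted p = 0.276), both lower without overlap. Pecam1, a junction protein of endothelium that blood cells also carry, had 224 and 217 on the Hemangioblast arrays, against 114 and 132 on the hCD4 arrays (log2 change 0.77, SE 0.251, limma adjusted p = 0.153). For Mef2c, a direct target of Etv2 in endothelium, the brightest of 4 probe sets had a log2 change of 0.48 (limma adjusted p = 0.330) and another rose by 1.78 on the log2 scale (SE 0.288, limma adjusted p = 0.0126), a call lost without Hemangioblast replicate 2 or either hCD4 array (limma adjusted p up to 0.0979). In place of 5 of the 19 genes, 2 passed without hCD4 replicate 1 or without an intensity trend, 3 without hCD4 replicate 2 or without scaling, and 6 with an added constant of 1 or with dim probe sets left out.

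The platelet genes linked to Fli1 held 3 calls, all higher. Of 9 listed genes 4 were measured, and 3 of these rose and 0 fell, against 3.43% of all genes that rose. Gp1bb, part of the receptor by which platelets bind Vwf, had 347 and 342 on the Hemangioblast arrays, against 22.9 and 12.3 on the hCD4 arrays (log2 change 3.44, SE 0.315, limma adjusted p = 0.000703). Gp5 and Gp9, further subunits of that receptor, had log2 changes of 2.13 (SE 0.304, limma adjusted p = 0.00665) and 1.78 (SE 0.278, limma adjusted p = 0.0105). Pf4, a platelet chemokine, had 78.0 and 79.2 on the Hemangioblast arrays, against 67.0 and 46.3 on the hCD4 arrays and did not pass (log2 change 0.40, SE 0.330, limma adjusted p = 0.662). The second probe set of Gp5 had a log2 change of 0.61 (limma adjusted p = 0.512). Without Hemangioblast replicate 2 the limma adjusted p of Gp5 was 0.0599, and without an intensity trend that of Gp9 was 0.0610. The list was written with earlier results of these arrays known, so its count is not independent evidence of a direction.

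**Figure D3:**
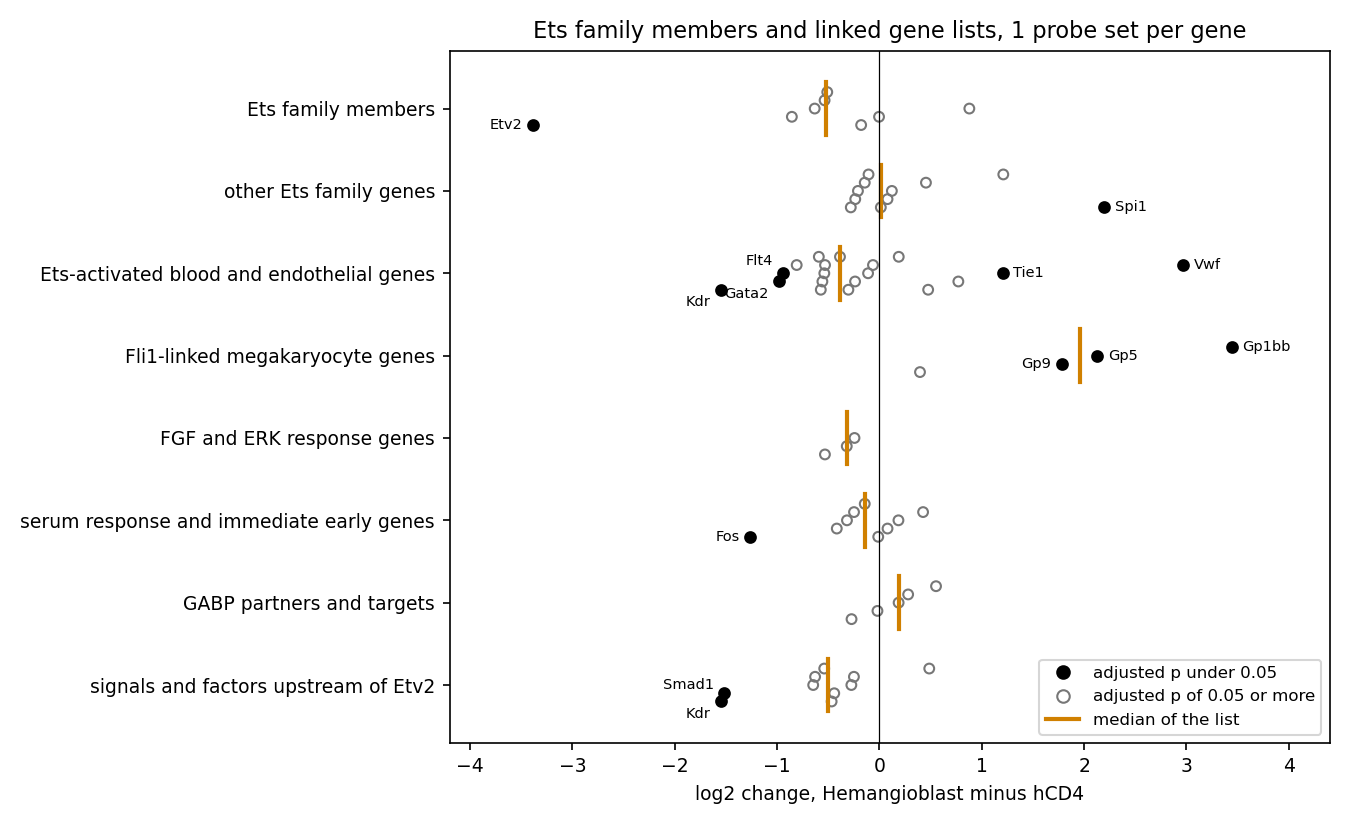
Log2 change (horizontal axis, Hemangioblast minus hCD4) of each measured gene, 1 probe set per gene, in the 8 Ets members and in 7 gene lists linked to them, filled where the adjusted p is under 0.05, with a bar at each list's median. Etv2, Kdr, Gata2, Flt4, Fos and Smad1 are the filled points below 0, and Spi1, Vwf, Tie1, Gp1bb, Gp5 and Gp9 those above it.

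Signals and factors known to act before Etv2 held 2 calls. Of 10 measured genes 2 fell (Kdr and Smad1) and 0 rose, against 1.95% of all genes that fell. Kdr is on both lists, and its call is the same one already counted among the Ets-activated genes. It also encodes the receptor used in the sort, and the part of the sort in its change was not tested. A log2 change below 0 was found for 9 of the 10, against 3917 of all 8251 genes, and the median was -0.50, against 0.02 over all genes. Smad1, which carries BMP signals to the nucleus, had 546 and 403 on the Hemangioblast arrays, against 1320 and 1420 on the hCD4 arrays (log2 change -1.51, SE 0.185, limma adjusted p = 0.00296). Its dimmer probe set had a log2 change of -1.26 (limma adjusted p = 0.0610), and without an intensity trend the brighter one had a limma adjusted p of 0.0513. The ligand gene Bmp4 had 966 and 1129 on the Hemangioblast arrays, against 1290 and 1572 on the hCD4 arrays (log2 change -0.44, limma adjusted p = 0.226), and Notch1 had -0.54 (limma adjusted p = 0.236), neither of which passed. Mesp1, an early mesoderm factor named after its values were seen, had 96.4 and 92.1 on the Hemangioblast arrays, against 222 and 109.5 on the hCD4 arrays (log2 change -0.65, SE 0.356, limma adjusted p = 0.448).

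The pathways of Etv4, Elk3 and Gabpa showed few calls. Of the genes induced by fibroblast growth factor and ERK signalling, 3 were measured and 0 passed by limma, with 0 at an unadjusted p under 0.05. Dusp6, a phosphatase that turns ERK off, had 537 and 534 on the Hemangioblast arrays, against 1029 and 593 on the hCD4 arrays (log2 change -0.53, SE 0.249, limma adjusted p = 0.351), and as for Etv4 hCD4 replicate 1 was the high array. The feedback inhibitors Spry4 and Spred2 had log2 changes of -0.24 and -0.32, with limma adjusted p-values of 0.526 and 0.680.

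Of 9 serum response and immediate early genes 1 fell (Fos) and 0 rose, against 1.95% and 3.43% of all genes. The 9 include Elk1 and Elk4, which are Ets factors already counted among the other Ets genes and not responding genes. Fos, a subunit of AP-1, had 743 and 849 on the Hemangioblast arrays, against 1887 and 1969 on the hCD4 arrays (log2 change -1.26, SE 0.149, limma adjusted p = 0.00244). Its dimmer probe set had -0.23 (limma adjusted p = 0.846), and without an intensity trend the brighter one had a limma adjusted p of 0.0566. Egr1, another gene bound by serum response factor, had 1353 and 1437 on the Hemangioblast arrays, against 1124 and 951 on the hCD4 arrays (log2 change 0.43, limma adjusted p = 0.205), and Ier2 and Fosb had -0.42 (limma adjusted p = 0.204) and -0.32 (limma adjusted p = 0.459). Of 5 measured partners and targets of Gabpa 0 passed by limma, with 0 at an unadjusted p under 0.05. Gabpb1, the partner subunit of GABP, named after its values were seen, had 374 and 358 on the Hemangioblast arrays, against 323 and 425 on the hCD4 arrays (log2 change -0.02, SE 0.207, limma adjusted p = 0.986). The cytochrome oxidase genes Cox4i1 and Cox5b had 0.55 and 0.28, and the mitochondrial transcription factor genes Tfam and Tfb2m had -0.27 and 0.19, with limma adjusted p-values of 0.337 to 0.791.

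The genes nearest to Etv2 in pattern were found by the root mean square difference of the log2 values over the 4 arrays, each gene centred on its own mean. They were Eomes, which encodes a T-box protein active in early mesoderm (0.284), Gldc, which encodes glycine decarboxylase (0.343), Ablim1, an actin-binding protein gene (0.446), Lgr5, a receptor that strengthens Wnt signals (0.447), and the growth factor gene Fgf3 (0.472). Eomes had 90.9 and 154 on the Hemangioblast arrays, against 1084 and 853 on the hCD4 arrays, so that it shared with Etv2 the lower value on Hemangioblast replicate 1 and the slightly higher value on hCD4 replicate 1. With 4 arrays in 2 groups, this likeness mostly reflects the size of the difference between the groups and is given as a description.

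**Figure D4:**
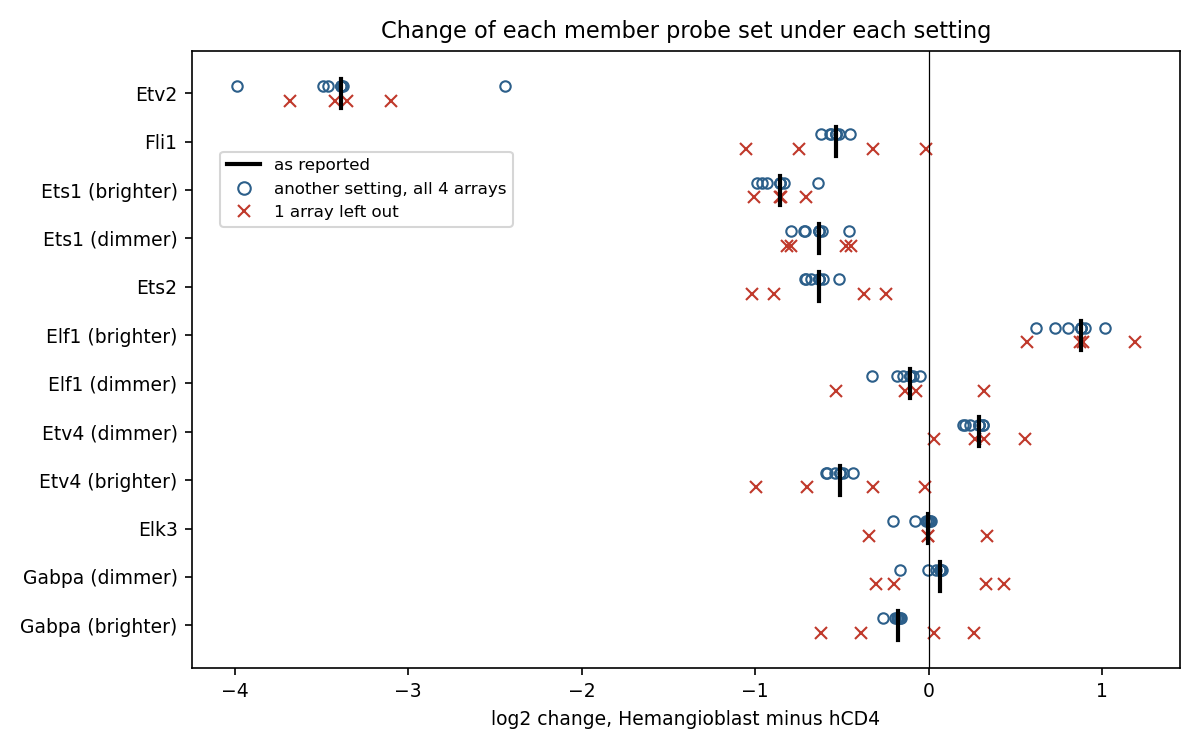
Log2 change (horizontal axis, Hemangioblast minus hCD4) of each member probe set as reported (black bar), under the other settings that use all 4 arrays (open circles) and with 1 array left out (crosses). Etv2 lies between -3.99 and -2.44 in all of them. The crosses of Elk3, both Gabpa probe sets and the dimmer Elf1 probe set fall on either side of 0.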

How the data were processed

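For each array the authors deposited a linear intensity for every probe set, by steps not given in the sources used here. Per the labels, RNA was isolated with TRIzol, not amplified, and labelled with biotin from 20 ug. Of 12488 probe sets, 66 array controls were removed before testing. Arrays were brought to a common trimmed mean, trimming 2% of values from each end (factors 0.938 and 1.05 for Hemangioblast, 0.936 and 1.09 for hCD4), and log2 was taken after adding 16.

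Symbols came from the platform annotation, where 10833 tested probe sets have 1 symbol, 396 several and 1193 none. A RefSeq table held 10817 of the first and changed 0 symbols. The brightest probe set (mean over the arrays) stands for a gene in counts of genes.

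Testing used limma's lmFit and trended eBayes (limma 3.58.1, R 4.3.3; two-sided, 2 residual and 6.18 prior degrees of freedom) without a block. With 2 arrays a group, exact permutation gives no p under 0.333 and was not used. The fit was also run on simulated data with independent noise set by intensity and changes planted only in probe sets above the median level. That run does not bear on dim probe sets or on differences between whole arrays. The number of arrays limits precision, and the median SE of a log2 change was 0.27.

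The replicate numbers of the titles were checked as pairs: the difference between replicates 1 and 2 correlated across probe sets with -0.0078 between the groups, and with 2 pairs the numbers were not taken as pairing.

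The members and lists were chosen with earlier results of these data known. Named by rule are all member probe sets, all other Ets genes, and in each further list the members past the threshold and those with the smallest adjusted p, up to 4. Also named are the 5 genes nearest to Etv2 in pattern. Sequences are from RefSeq tables. Python 3.11.15 and matplotlib 3.10.9 made the figures.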

Additional observations from a re-analysis of the deposited data

How the results depend on the processing

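The call of Etv2 was kept under all 12 other settings, with adjusted p-values of 3.02e-06 to 0.0106 and log2 changes of -3.99 to -2.44, and no other member probe set passed under any of them. Of the linked lists, the counts of other Ets genes, of fibroblast growth factor and ERK genes and of Gabpa partners stayed at 1, 0 and 0, and that of Fli1-linked platelet genes was 2 or 3. Over all probe sets 556 passed (362 higher, 194 lower), 272 without scaling (222 higher, 50 lower), 883 with dim probe sets left out (522 higher, 361 lower), 220 without an intensity trend (188 higher, 32 lower), and 219 to 517 with 1 array left out. Of the Ets-activated blood and endothelial genes 5 passed, 3 without scaling, 2 without an intensity trend, 2 to 4 with 1 array left out, and 6 with an added constant of 1 or with dim probe sets left out. Without the trend, 0 of the serum response genes and 1 of the genes upstream of Etv2 passed. The cause of these differences was not tested.

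The sign turned only for members far from the threshold. For Elk3 the log2 change was 0.0064 with an added constant of 64 and 0.012 without scaling, and for the dimmer Gabpa probe set it was -0.0067 with median scaling and -0.17 with quantile normalization. With 1 array left out Elk3 ranged from -0.34 to 0.34, the dimmer Gabpa probe set from -0.31 to 0.43, the brighter one from -0.62 to 0.26, and the dimmer Elf1 probe set from -0.53 to 0.32. With the replicate number as a block 710 probe sets passed, 1 of them a member (Etv2, log2 change -3.39), and the pairing changed no member's call. Under the block 6 of the Ets-activated genes passed, Tal1 among them, and so did the dimmer Lmo2 probe set (limma adjusted p = 0.0333, against 0.197 without the block). The alternatives of scaling shifted the median log2 change over all probe sets by -0.07 (median scaling), -0.07 (quantile normalization) and 0.02 (no scaling). Where 1 array is left out, the lone array of its group is assumed to vary like the others.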
